A study of Mus musculus with 2 samples.

Results

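Cilium and centrosome genes were taken by symbol: the intraflagellar transport genes (Ift), the Bardet-Biedl genes (Bbs and Ttc8), Arl13b, Foxj1, the axonemal dynein heavy and light chains (Dnah, Dnal), the radial spoke genes (Rsph), the tektins (Tekt) and the centrosomal protein genes named Cep with a number. The rule found 87 genes of 55450 annotated genes, and all 87 were protein-coding. The tissue was hippocampus, or by its label a layer of that structure, from 25-day-old males of B6CASTF1/J, an F1 cross of B6 and CAST parents, and total RNA was sequenced. There was 1 group with 2 biological replicates. Each library used 300 ng of RNA and received ERCC spike-ins, which are synthetic RNAs added at known amounts. By the labels the replicates are separate tissue samples with a single donor identifier, so they may not be separate animals, and their spread may be partly technical. No condition was compared and no test was made. The values describe each gene's level and the distance between the replicates.

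The primary cilium is a single, immotile antenna that grows from the older centriole of a cell and is carried by hippocampal neurons and astrocytes, where it holds receptors for hedgehog, somatostatin and other signals. Intraflagellar transport complexes move cargo along it, and the BBSome carries membrane proteins out of it. Motile cilia share that transport machinery and add dynein arms, radial spokes and tektin filaments; in brain they sit on the ependymal cells that line the ventricles, where the transcription factor Foxj1 switches on their genes. RFX transcription factors bind a promoter element called the X-box and are known to drive genes of both kinds of cilium. Cep proteins build the centrosome and the basal body below the cilium, but many of them also serve cells without one.

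The unit of level is TPM (transcripts-per-million), which divides counts by transcript length and so lets genes be compared. Annotated genes took 30617252 expected counts in replicate 1 and 35697450 in replicate 2, and spike-ins took 0.367% and 0.414%. A count of 0 would allow up to 3 counts, equal to 0.0980 and 0.0840 CPM (counts scaled to library size) in the 2 libraries. All 8 markers of hippocampal neurons were above 1 TPM. Among them were the dentate granule cell genes Prox1 with 52.8 TPM in replicate 1 and 41.5 TPM in replicate 2 and C1ql2 with 36.3 and 37.8 TPM. Wfs1 with 81.2 and 72.9 TPM and Fibcd1 with 48.8 and 58.5 TPM, of the same list, were not lower on average. The 4 astrocyte markers were above 1 TPM as well, and the sperm markers Prm1, Prm2 and Tnp1 had 0 counts in both libraries.

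RefSeq promoter windows of GRCm38.p6, from 250 bases before to 50 bases after a gene's start, were found for 74 of the 87 members, in 84 windows. The letters GTTGCC, from 1 side of the X-box, were searched on both strands. They were present in 26 of 84 member windows (31.0%), against 4111 of 32851 windows of all genes (12.5%) and 12.7% of windows of protein-coding genes with a level of at least 1 TPM. By family, 5 of 11 windows of intraflagellar transport genes held the letters, 4 of 8 of tektin genes, 3 of 9 of Bardet-Biedl genes, 8 of 33 of Cep genes, 4 of 16 of axonemal dynein genes and 1 of 6 of radial spoke genes. Overlapping windows of Tekt2 hold the same site, and by gene the tektin count was 3 of 5. The paired form is GTTNCC and GGNAAC separated by any 2 bases. It contains the shorter letters, or their reverse complement, where its first N reads G or its last N reads C. This form was in 2 of 84 member windows (2.38%), those of Bbs7 and Cep19, against 0.451% of all windows. The forkhead letters GTAAACA, of the family to which Foxj1 belongs, were in 3 of 84 member windows (3.57%) and in 3.65% of all windows. A match describes the letters and not a bound site. The sites below, from 5 families, lie wholly before the RefSeq start and outside the gene as annotated in GENCODE M21, and they show how the same core sits in promoters of genes whose levels differ widely. Each is read 5′ to 3′ on the strand of its gene, with the searched letters, or their reverse complement GGCAAC, in capitals.

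Ift57, chr16:49699187-49699232, plus strand: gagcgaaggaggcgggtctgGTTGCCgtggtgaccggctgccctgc
Ift140, chr17:25015957-25016002, plus strand: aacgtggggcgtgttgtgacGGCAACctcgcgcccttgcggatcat
Bbs7, chr3:36613485-36613530, minus strand: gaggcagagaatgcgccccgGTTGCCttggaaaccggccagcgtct
Arl13b, chr16:62847196-62847241, minus strand: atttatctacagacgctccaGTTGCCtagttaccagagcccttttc
Cep41, chr6:30693855-30693900, minus strand: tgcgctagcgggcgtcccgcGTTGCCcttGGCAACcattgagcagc
Tekt2, chr4:126325759-126325804, minus strand: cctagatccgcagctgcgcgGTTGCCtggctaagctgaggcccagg

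Genes of the primary cilium were present throughout, while most genes particular to the motile axoneme were near or below 1 TPM. Of the 87 members, 71 had a mean of at least 1 TPM, 50 at least 5 TPM and 29 at least 10 TPM. Their median was 5.88 TPM, against 3.46 TPM over all 21951 protein-coding genes, of which 12969 reached 1 TPM. All 24 members of the intraflagellar transport and Bardet-Biedl families and Arl13b reached 1 TPM, with a median of 11.4 TPM. Of the 31 members of the dynein, radial spoke and tektin families and Foxj1, 17 reached it, with a median of 1.15 TPM. In bulk tissue, fewer cells of a type and less RNA per cell cannot be told apart. The order of members was close to the same in both libraries, with a Spearman correlation of 0.990 across the 87 genes, which are not independent replicates. The members together took 0.0823% of all TPM in replicate 1 and 0.0776% in replicate 2.

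**Figure D1:**
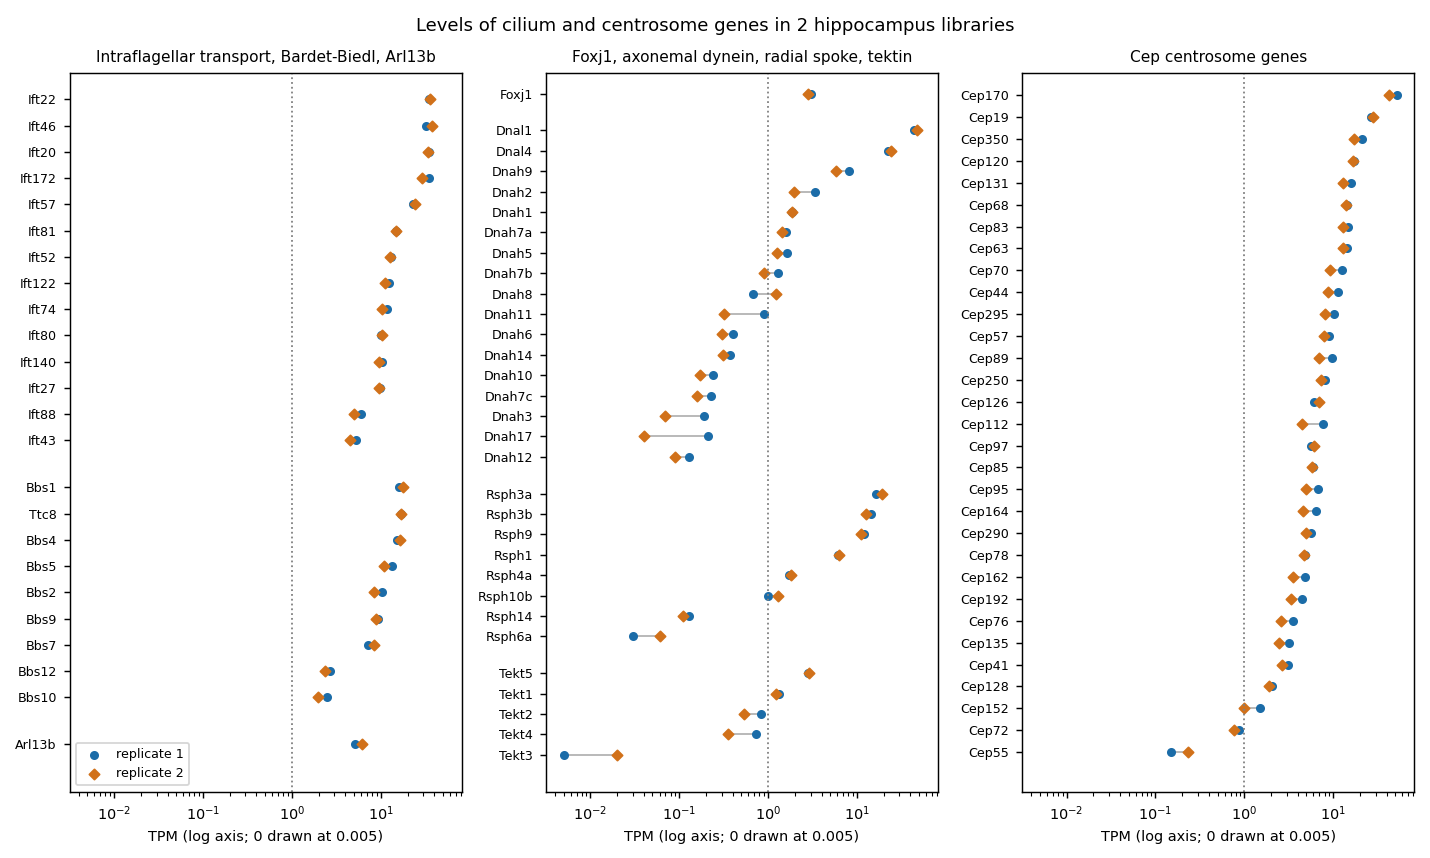
Level of members in TPM on a log axis, by family, with a circle for replicate 1, a diamond for replicate 2 and a dotted line at 1 TPM. The intraflagellar transport and Bardet-Biedl genes all lie right of the line, while 9 of 17 axonemal dynein genes and 3 of 5 tektins have means left of it.

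Intraflagellar transport trains have an IFT-B complex, which runs with kinesin towards the tip, and an IFT-A complex, which serves the return and the entry of membrane proteins. The 11 IFT-B members had a median of 14.7 TPM and spanned 6.53-fold. Ift22, which encodes a small GTPase-like subunit and lies on chromosome 5 from 136908150 to 136915404 (mm10, plus strand), was the highest with 34.97 TPM in replicate 1 and 36.1 TPM in replicate 2. Ift46, Ift20 and Ift172 stood beside it. Ift46 had 32.3 and 37.5 TPM, Ift20, whose product also works at the Golgi, had 35.3 and 34.3 TPM, and Ift172, the largest IFT-B subunit, had 34.8 and 29.1 TPM. The ranges of these 4 genes overlapped in every pair but Ift22 and Ift172, so most of their order is not resolved by these values. In kallisto, the other program with deposited values, Ift22 averaged 76.1 TPM. Ift46, Ift20 and Ift172 followed there with 59.4, 57.5 and 53.7 TPM. Ift57 followed with 23.2 and 24.1 TPM, and Ift81, a tubulin-binding subunit, with 14.7 TPM in both. At the low end Ift80 had 10.01 and 10.3 TPM, the small GTPase gene Ift27 had 9.70 and 9.53 TPM, and Ift88, the core subunit whose loss removes cilia in mouse, had 5.93 and 4.96 TPM. The gap between Ift88 and Ift27 was larger than the spread of either gene.

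The 3 IFT-A members had a median of 9.98 TPM and lay within the range of IFT-B apart from Ift43. Ift122 had 12.2 and 11.3 TPM, Ift140 had 10.3 and 9.67 TPM and Ift43 had 5.32 and 4.53 TPM. Subunits and motors of this transport that carry other symbols were at similar levels. Of 19 such genes, 18 reached 1 TPM, with a median of 9.18 TPM. Kifap3, Kif3a and Kif3b, which form the kinesin motor that also carries cargo in axons, were the highest at 80.3, 56.3 and 23.9 TPM on average, and Ttc30a2, a near copy of Ttc30a1, was the lowest with 0.04 and 0.09 TPM. Kifap3 and Kif3a stood above all IFT-B members, and Kif3b lay within their range.

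The BBSome is a protein coat that links membrane receptors to the transport trains. Its 7 members here had a median of 12.2 TPM and lay within 2.19-fold of each other. Bbs1 had 15.9 TPM in replicate 1 and 17.8 TPM in replicate 2, Ttc8 had 17.1 and 16.7 TPM, and Bbs4 had 15.3 and 16.5 TPM. Bbs5 had 13.4 and 10.99 TPM, Bbs2 had 10.4 and 8.35 TPM, Bbs9 had 9.43 and 8.83 TPM and Bbs7, whose promoter carries the paired X-box letters shown above, had 7.10 and 8.34 TPM. The range of Bbs1 overlapped those of Ttc8 and Bbs4, and the ranges of Bbs2 and Bbs9 overlapped each other, while Bbs7 lay at or below the lower edge of both. Bbs10 with 2.46 and 1.99 TPM and Bbs12 with 2.72 and 2.33 TPM, which encode chaperonin-like proteins needed for assembly rather than coat subunits, stood below every coat subunit in both libraries. The 6 BBSome partners with other symbols all reached 1 TPM, with a median of 17.9 TPM. Trim32, a ubiquitin ligase with many other substrates, averaged 96.6 TPM, Lztfl1, which regulates BBSome entry, 26.6 TPM, Bbip1, a small BBSome subunit, 23.0 TPM, and Wdpcp 5.32 TPM, the lowest. Arl13b, a small GTPase of the ciliary membrane widely used as its marker, had 5.10 TPM in replicate 1 and 6.12 TPM in replicate 2, below the coat subunits in both.

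The compartments around these complexes were also covered. All 15 transition zone genes, which gate the base of the cilium, reached 1 TPM with a median of 7.84 TPM. Ahi1 averaged 85.7 TPM, B9d1 17.9 TPM and Tctn2 11.3 TPM, and Mks1 was the lowest at 2.19 TPM. Of 18 genes of ciliary membrane signalling, 17 reached 1 TPM with a median of 9.71 TPM. Arl3, which releases lipidated cargo inside the cilium, had the highest mean at 53.5 TPM, followed by Pkd1 at 35.4 TPM and the receptor gene Gpr161, a brake on hedgehog signalling, at 28.2 TPM. The lowest was Kif7, a hedgehog pathway kinesin, at 0.99 TPM. Markers of neuronal cilia chosen after their values were seen were Adcy3, an adenylyl cyclase, with 21.5 and 22.8 TPM, and the somatostatin receptor gene Sstr3 with 11.6 and 12.2 TPM. Other receptor genes of the same list lay on both sides of 10 TPM. Npy2r had 16.5 and 15.9 TPM, Mchr1 had 9.07 and 11.3 TPM and Htr6 had 3.07 and 3.53 TPM.

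The motile programme gave a different picture. Foxj1 had 3.02 TPM in replicate 1 and 2.82 TPM in replicate 2, from 159 and 174 counts. Of the 15 dynein heavy chains, the motors of the axoneme, 6 reached 1 TPM. Their median was 0.605 TPM on the replicate means, 0.67 TPM in replicate 1 alone and 0.32 TPM in replicate 2 alone. Dnah9, an outer arm heavy chain on chromosome 11 from 65831282 to 66168551 (mm10, minus strand), was the highest with 8.07 and 5.82 TPM. The next were Dnah2, an inner arm heavy chain, with 3.39 and 1.95 TPM and Dnah1 with 1.88 and 1.84 TPM. Dnah9 was above every other heavy chain in both libraries. Dnah7a had 1.58 and 1.44 TPM, Dnah5, the other main outer arm heavy chain of respiratory and ependymal cilia, had 1.62 and 1.27 TPM, and Dnah7b had 1.29 and 0.91 TPM. The lowest were Dnah12 with 0.13 and 0.09 TPM, Dnah17, known from sperm outer arms, with 0.21 and 0.04 TPM, and Dnah3 with 0.19 and 0.07 TPM. Dnah17 and Dnah3 rested on 11 and 2 counts and on 13 and 9 counts, so their order is not resolved. The rank of Dnah17 also depends on the program: kallisto gave it 3.67 and 1.93 TPM from 66.1 and 38.2 estimated counts, a mean of 2.80 TPM and above that of Dnah5 in the same table, 2.12 TPM.

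The 2 light chain genes stood far above the heavy chains. Dnal1, a light chain of the outer arm, had 44.2 and 47.8 TPM, and Dnal4 had 22.6 and 24.2 TPM. The lower of them was above the highest heavy chain by more than the spread of either gene in each library.

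Radial spokes reach from the outer doublets to the central pair and regulate the dyneins. Of the 8 genes, 6 reached 1 TPM, with a median of 3.98 TPM. Rsph3a had 16.5 and 19.2 TPM and Rsph3b, its near-identical copy, had 14.5 and 12.6 TPM. Rsph3 proteins belong to the spoke stalk. The spoke head genes were spread widely. Rsph9 had 12.1 and 11.03 TPM, Rsph1 had 6.06 and 6.27 TPM and Rsph4a had 1.74 and 1.83 TPM. These 3 were separated from each other in both libraries. Rsph10b had 1.01 and 1.29 TPM, Rsph14 had 0.13 and 0.11 TPM and Rsph6a, the sperm counterpart of Rsph4a, had 0.03 and 0.06 TPM, from 1 and 3 counts.

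Tektins form filaments bound to the doublet microtubules of cilia and flagella. Tekt5, known mainly from sperm, was the highest of 5 with 2.82 and 2.88 TPM, and Tekt1 had 1.33 and 1.23 TPM. Tekt2 had 0.84 and 0.53 TPM and Tekt4 had 0.73 and 0.35 TPM, so neither reached 1 TPM in either library. Tekt3 had 0 counts in replicate 1 and 1 count in replicate 2, and no other member had 0 counts in a library.

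Motile axoneme genes with other symbols were as low as the dyneins. Of 32, 14 reached 1 TPM and the median was 0.80 TPM. Cfap298, whose product helps preassemble dynein arms, averaged 17.3 TPM, Ccdc39, of the inner arm docking ruler, 12.3 TPM and Nme5, a radial spoke component, 7.30 TPM, and the assembly factor gene Dnaaf1 was the lowest at 0.06 TPM. Of 11 measured RFX and multiciliation regulators, 8 reached 1 TPM, with a median of 1.69 TPM. Rfx3 averaged 55.1 TPM, Rfx7 10.2 TPM and Rfx1 9.48 TPM, whereas Mcidas, a trigger of multiciliation, averaged 0.23 TPM. Rfx3 was thus the highest by a wide margin, and its list holds regulators of primary as well as motile cilia.

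Markers of the cells that could carry motile cilia were low but present. Of 10 ependymal markers, Foxj1 included, 4 reached 1 TPM, and the list summed to 18.1 TPM in replicate 1 and 14.4 TPM in replicate 2. Rarres2 was the highest with 7.04 and 5.85 TPM, and Sntn, a tip protein of motile cilia, had 0.08 and 0.11 TPM. Of 12 choroid plexus markers, 4 reached 1 TPM and the list summed to 58.5 TPM in replicate 1 and 71.4 TPM in replicate 2. Most of that was Ttr, with 47.9 and 61.0 TPM. Also reaching 1 TPM were Kl (3.77 and 3.78 TPM), Sostdc1 (1.46 and 1.51 TPM) and Prlr (1.07 and 1.40 TPM). Among those below it, Otx2 had 0.59 and 0.31 TPM from 13 and 7 counts. Folr1 had 0.88 and 0.70 TPM from 13 and 12 counts. None of 3 photoreceptor markers reached 1 TPM. The part of these cells in the levels of the motile members was not tested.

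**Figure D2:**
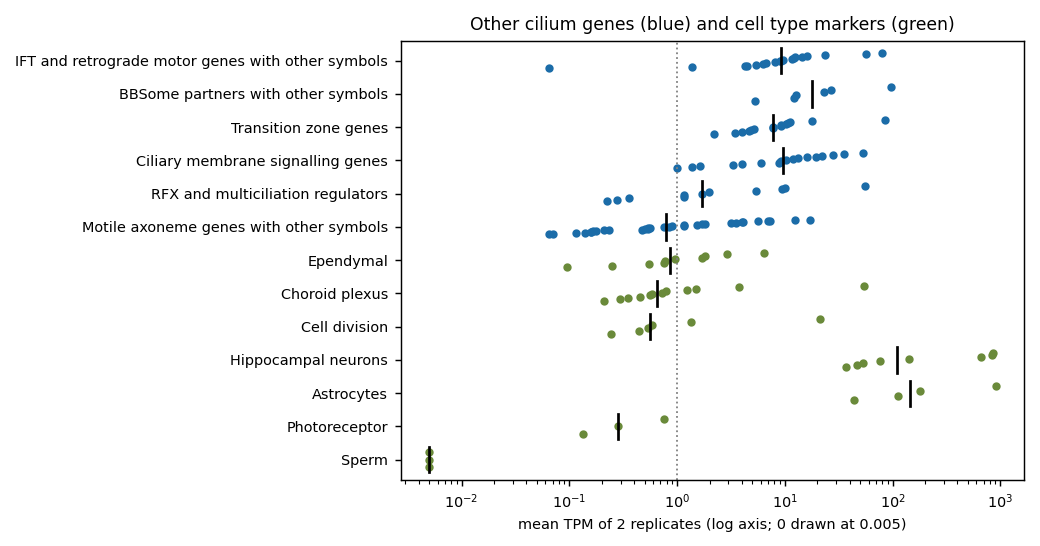
Mean TPM of the 2 replicates on a log axis for each gene of 6 lists of other cilium genes and 7 lists of cell type markers, with a black bar at each list's median and a dotted line at 1 TPM. The medians of the transport, BBSome partner, transition zone and signalling lists lie between 7.84 and 17.9 TPM, and those of the motile axoneme and ependymal lists below 1 TPM.

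The Cep genes were nearly all present. Of 32 genes, 30 reached 1 TPM, with a median of 6.32 TPM. Cep170, a subdistal appendage protein that binds microtubules (chromosome 1, 176733653 to 176814067, mm10, minus strand), had 51.6 TPM in replicate 1 and 42.7 TPM in replicate 2. Its mean was the highest of the 87 members and its range enclosed that of Dnal1, the second highest. This rank depends on the program: in kallisto Dnal1 and Ift22 averaged 76.7 and 76.1 TPM, above Cep170 at 64.8 TPM. Among the other linker, satellite and centrosome genes, Cep19, which helps start ciliogenesis, had 26.8 and 27.7 TPM, Cep350 had 21.2 and 17.0 TPM, Cep68, of the centrosome linker, had 14.5 and 13.9 TPM and Cep70 had 12.5 and 9.27 TPM. The lowest 3 were Cep72, a satellite protein gene, with 0.88 and 0.76 TPM, Cep128 with 2.05 and 1.89 TPM and Cep41 with 3.06 and 2.63 TPM.

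The distal appendages dock the centriole to the membrane. Of the 6 genes grouped here under them or the transition zone, Cep131 had 15.9 and 12.7 TPM and Cep83 14.8 and 13.04 TPM. Cep89 had 9.63 and 6.84 TPM, Cep164, which marks the appendages, had 6.32 and 4.58 TPM, Cep290, a transition zone protein, had 5.56 and 4.93 TPM and Cep162 had 4.86 and 3.54 TPM. All 6 were lower in replicate 2. Among 10 genes of centriole duplication and length, Cep120 had 17.0 and 16.6 TPM, Cep63 14.2 and 12.8 TPM, Cep44 11.2 and 8.74 TPM, Cep295 10.3 and 8.08 TPM, Cep57 9.03 and 7.93 TPM and Cep97 5.69 and 6.06 TPM. The lowest were Cep76 with 3.51 and 2.58 TPM, Cep135 with 3.22 and 2.48 TPM and Cep152, a scaffold for the duplication kinase, with 1.51 and 1.00 TPM. Cep55, which acts at the midbody in the last step of cell division, had 0.15 and 0.23 TPM from 6 and 10 counts. Of 6 other genes of dividing cells, 2 reached 1 TPM. Top2a had 1.07 and 1.61 TPM, and Pcna, which also serves DNA repair, had 20.2 and 22.4 TPM. Mki67 was among those below it, at 0.56 and 0.52 TPM.

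A gene's TPM sums over its transcript models, and for some motile genes most of it came from short or non-coding models. Among the 71 members with at least 1 TPM, 1 model took at least 50% of the TPM in 45, and the leading model was protein-coding in 66. The 5 exceptions were Dnah1, Dnah7a, Dnah7b, Rsph3a and Cep112. The same shares over all protein-coding genes were not computed, so these counts do not set the members apart from other genes. In Dnah1 a processed transcript of 2897 bases, Dnah1-202, took 86.1% of the TPM in replicate 1 and 88.04% in replicate 2, and the full-length coding model of 12872 bases had 0.26 and 0.22 TPM. Counts were shared more evenly, with 94.0 and 111 on the short model and 70.04 and 69.1 on the coding one. TPM divides by length, so a short model needs fewer reads to lead. In Dnah7a a model of 732 bases took 51.6% and 52.1%, and in Dnah7b one of 532 bases took 29.5% and 42.2%. In Rsph3a a processed transcript of 688 bases took 58.3% and 70.9% of the TPM, and coding models at least 0.5 times as long as the longest had 0.75 and 1.89 TPM. In Cep112 one of 788 bases took 31.3% and 32.2%.

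Counted over such long coding models alone, 65 members reached 1 TPM in place of 71, and of the heavy chains 2 in place of 6. These 2 were Dnah9 with 4.06 and 2.96 TPM and Dnah5, which has 1 model, with 1.62 and 1.27 TPM. This measure was chosen after the data were seen, and it was not computed over all protein-coding genes. It also dropped Ift46, whose leading model, Ift46-202, is protein-coding but short at 1317 bases. By counts, long coding models held most of the reads. Their median share in the heavy chains was 86.4% in replicate 1 and 78.95% in replicate 2, against 87.6% and 89.5% over all members. Other members split their TPM over several models. The lowest leading shares were those of Bbs9 at 28.7%, Cep89 at 29.4%, Ift22 at 30.3%, Cep63 at 31.5% and Cep112 at 31.7%. In Ift22 coding models of 3071 and 670 bases took 30.3% and 28.4%. The leading model was the same in both replicates for 68 of the 71 genes and the same in RSEM and kallisto, the 2 programs whose tables were deposited, for 60. The split over models moved the level of Dnah8, which had 76 counts in each library but 0.67 TPM in replicate 1 and 1.23 TPM in replicate 2.

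**Figure D3:**
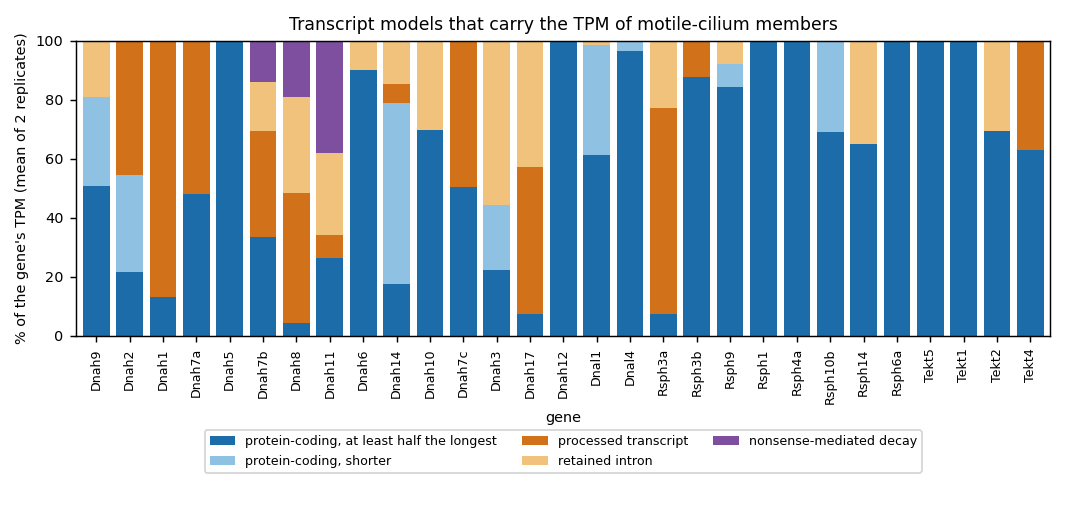
Percent of each gene's TPM carried by classes of transcript model, as the mean of the 2 replicates, for the axonemal dynein, radial spoke and tektin members with TPM above 0 in both libraries. Dark blue is coding models at least 0.5 times as long as the longest, which hold all of the TPM in Dnah5 and 12.9% in Dnah1.

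Some members have near-identical copies, and their counts rest on how reads were shared out. Dnah7a, Dnah7b and Dnah7c, copies of an inner arm heavy chain on chromosome 1, were 96.8% to 97.3% identical over 12072 aligned coding bases. Of all stretches of 100 bases in Dnah7a, 19.96% occurred unchanged in another of the 3, and 23.5% in Dnah7b and 24.9% in Dnah7c. Rsph3a and Rsph3b, on chromosome 17, differed at 13 of 1545 aligned coding bases, and 60.6% of the stretches of Rsph3a and 64.8% of those of Rsph3b were shared. The windows below are coding sequence of GENCODE M21 models, 60 bases each, chosen as the first with the most differing columns, so they show the sites at which reads can be assigned. Capitals mark columns where the copies differ.

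Dnah7a-201, coding bases 1226 to 1285: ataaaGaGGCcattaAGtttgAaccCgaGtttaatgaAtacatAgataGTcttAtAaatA
Dnah7b-201, coding bases 1358 to 1417: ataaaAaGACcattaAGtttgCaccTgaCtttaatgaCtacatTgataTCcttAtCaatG
Dnah7c-204, coding bases 1226 to 1285: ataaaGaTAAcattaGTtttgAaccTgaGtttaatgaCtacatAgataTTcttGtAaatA
Rsph3a-205, coding bases 208 to 267: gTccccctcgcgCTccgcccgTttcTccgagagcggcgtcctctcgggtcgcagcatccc
Rsph3b-202, coding bases 262 to 321: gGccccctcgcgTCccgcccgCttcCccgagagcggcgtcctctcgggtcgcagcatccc

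The heavy chain window has 16 differing columns and the spoke window 5. Dnah7a had 205 and 217 counts, Dnah7b 123 and 104.4, and Dnah7c 29.4 and 26.8. The deposited posterior SD of the count, which measures how uncertain the sharing was, came to 1.85% and 1.65% of the count in Dnah7a, 3.14% and 3.39% in Dnah7b and 10.3% and 7.73% in Dnah7c. The order of the 3 copies was the same in both libraries, although unlike sharing could still shift it. In Rsph3a the posterior SD was 8.11% and 5.87% of 188 and 326 counts, and in Rsph3b 3.21% and 3.85% of 475 and 498 counts. It was above 0 in both libraries for 7 members and in at least 1 for 8. In addition, 27 members overlapped an exon of a gene on the opposite strand and 3 an exon on the same strand. Whether the counting used strand is not given in the sources used here, so it is not known whether reads of the opposite-strand pairs were told apart. Strand would not separate the same-strand pairs.

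The 2 programs were compared on the same reads. RSEM TPM were a median of 0.636 times those of kallisto over protein-coding genes. After division by that ratio, 0 of 71 members with at least 1 TPM differed over 2-fold, where 204 of 12947 protein-coding genes did, a background of 1.58%. Over 1.5-fold, 4 of these 71 members differed, which were Cep112, Cep128, Cep41 and Ift122, against 6.44% of those protein-coding genes. Among the 16 members below 1 TPM, 3 differed over 2-fold, all higher in kallisto. The share over all genes below 1 TPM was not computed, so this count does not set the members apart. The ratio, divided in the same way, was 0.0701 in Dnah17, 0.283 in Rsph14 and 0.378 in Dnah7c. Their levels therefore depend on the program. No test was made for these counts.

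The replicates lay close together for most members. Counts were scaled by TMM and compared as the log2 ratio of replicate 2 over replicate 1 for the 68 members whose expected counts averaged at least 100. Only Rsph3a, 1 of 68, was over 1.5-fold apart, against 2.3% of all genes at that minimum. Its ratio was 0.60 on the log2 scale, from 188 counts in replicate 1 and 326 in replicate 2, and it is a gene with a near-identical copy. Of the members, 0 were over 2-fold apart, against 0.779% of all genes. Dnah2 was just inside 1.5-fold at -0.58, with 253 and 193 counts.

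The members nevertheless leaned to lower values in replicate 2. Their median log2 ratio was -0.06, and 43 of 68 were lower in replicate 2, against a median of 0.04 over protein-coding genes, of which 4511 of 11900 were lower. The lean was uneven between families. The 6 measured heavy chains were all lower in replicate 2 with a median of -0.35, and 22 of 30 Cep genes were lower with a median of -0.16. The Bardet-Biedl genes had a median of -0.07 and the intraflagellar transport genes of 0.00. With TMM, the radial spoke, tektin and light chain genes lay near the protein-coding median of 0.04. Of the 11900 protein-coding genes, 7389 were higher in replicate 2. The 5 radial spoke genes had a median of 0.08, with 3 higher in replicate 2. Tekt5, the 1 measured tektin, had 0.07, and both dynein light chains were higher, with a median of 0.06. Scaled to the spike-ins, these values were -0.13, -0.13 and -0.15, against -0.16 over protein-coding genes. The heavy chains share their libraries, so they are not independent of each other.

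Among the heavy chains, Dnah9 had a log2 ratio of -0.39, from 1403 counts in replicate 1 and 1224 in replicate 2. Dnah7b had a ratio of -0.43, Dnah5 of -0.31, Dnah7a of -0.11 and Dnah1 of -0.06. Scaled to the spike-ins, the median of the heavy chains moved to -0.56, that of the members to -0.27 and that of all protein-coding genes to -0.16. With that scaling 6 of 68 members were over 1.5-fold apart, against 4.4% of all genes, and all 6 were lower in replicate 2, against 4.17% of all genes. They were Dnah2, Cep152, Dnah7b, Cep128, Cep70 and Dnah9. Rsph3a was then within 1.5-fold, at 0.40. That scaling shifts all genes by nearly the same amount, so the distance between these medians carries no further information.

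Some other measures were lower in replicate 2 as well. Genes of the annotation class TEC, single loci whose transcripts still await experimental testing, had a median log2 ratio of -0.90 over 174 genes, and genes annotated inside introns of others had -0.80 over 20 genes. The ratio was also lower for genes that are longer on the chromosome. Across the 68 members the Spearman correlation of the ratio with that length was -0.42, and across 11900 protein-coding genes -0.26; genes of 1 pair of libraries are not independent points. Without the minimum on counts, all 15 heavy chains had a median length of 239 kb. That of all 87 members was 44.3 kb and that of the 14 intraflagellar transport genes 65.1 kb. The 6 heavy chains with a ratio ran from 63.5 kb in Dnah1 to 337 kb in Dnah9. Ependymal markers summed to less in replicate 2 (18.1 TPM in replicate 1 and 14.4 TPM in replicate 2), while choroid plexus markers summed to more (58.5 and 71.4 TPM). The ependymal list rested on 370 and 369 unscaled counts, with replicate 2 the larger library. Foxj1, its 1 marker averaging at least 100 counts, had a log2 ratio of -0.06. The part of gene length, intron-containing RNA or ependymal cells in the lower heavy chain values was not tested.

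**Figure D4:**
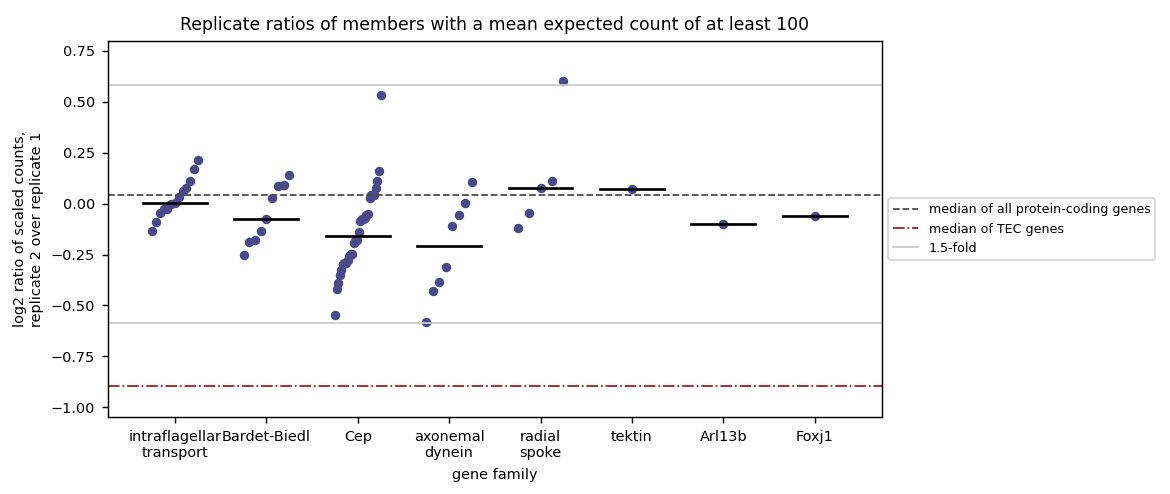
Log2 ratio of scaled counts, replicate 2 over replicate 1, for the 68 members averaging at least 100 expected counts, by family, with a black bar at each family's median. The dashed line is the median of all protein-coding genes at 0.04, the dash-dotted line that of TEC genes at -0.90 and the grey lines mark 1.5-fold; Rsph3a is the 1 point outside them.

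**Figure D5:**
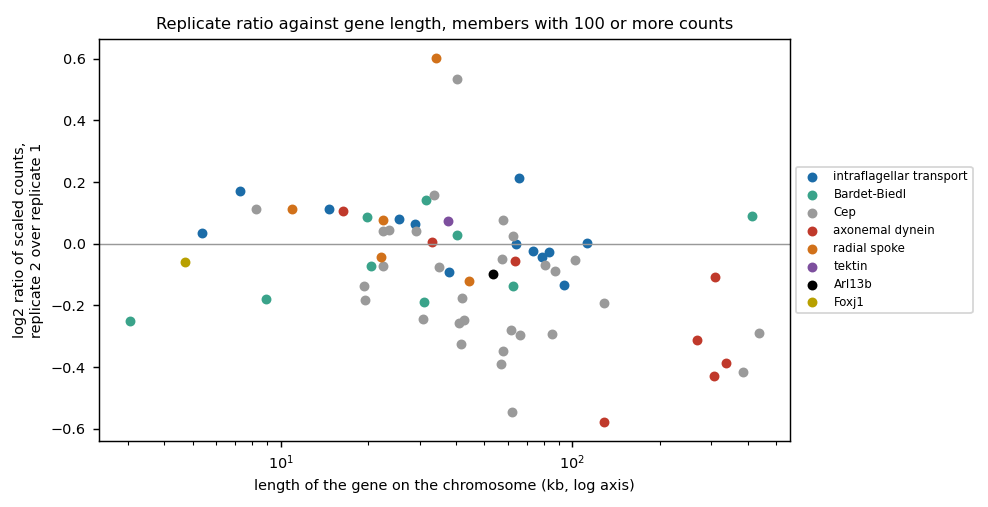
The same log2 ratio against the length of each gene on the chromosome in kb, on a log axis, coloured by family. Most long genes lie below 0, while intraflagellar transport genes stay near 0, and the Spearman correlation over the 68 genes is -0.42.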

How the data were processed

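Total RNA libraries of 2 hippocampus samples were analysed. Per the file headers, the deposited gene and first transcript tables have the columns of RSEM and the other transcript table those of kallisto, and per the deposited notes they refer to mm10 and GENCODE M21. Not given in the sources used here are aligner and program versions. The deposited expected counts are estimates that share out reads matching several features, and were rounded for ratios. The deposited TPM values divide these by effective length and scale them to a fixed total, spike-ins included, so short models gain TPM. The posterior SD of the count is a deposited score of the uncertainty of that sharing.

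Genes were named through the transcript table. Of 81881 gene rows, 96 spike-ins and 26335 rows without such a name, with 18644.53 and 16023.14 counts, stayed out of library sizes. Ratios used a prior count of 0.5 and TMM factors (edgeR 4.0.16 under R 4.3.3). Medians given in TPM are of the TPM values themselves, and median levels on a log2 scale used log2(TPM + 0.1). Tables and figures were made with matplotlib 3.10.9, numpy 2.4.6, pandas 2.3.3 and scipy 1.17.1 in Python 3.11.15. The ratio step was tested on simulated counts with known changes. Alternatives were another pseudocount, the mean, kallisto, other TPM and count minimums, DESeq2 1.42.0 size factors, deposited TPM, spike-in scaling and each replicate left out. Members and lists were chosen with earlier results of these data known. Named genes are all members of a role group of 8 or fewer, in larger groups the 6 highest and 3 lowest, members past a fold threshold, the 5 lowest leading shares, non-coding leads, near-identical copies, and the 3 highest and the lowest of each pathway list. Others were chosen after their values were seen, and the values of 1 gene the rule takes are not reported here.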

Additional observations from a re-analysis of the deposited data

How the results depend on the processing

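No paired analysis was possible because the study has 1 group. The count of 71 members at 1 TPM or more stayed within 1.5 times under each alternative tried. The median of log2(TPM + 0.1) was 2.58 over all members, 3.64 for intraflagellar transport, 3.24 for Bardet-Biedl, 0.07 for axonemal dynein, 1.78 for radial spoke, -0.35 for tektin and 2.68 for Cep genes. With a pseudocount of 1 it was 2.78 over all members, 3.74 for intraflagellar transport, 0.96 for dynein, 2.16 for radial spoke, 0.75 for tektin and 2.87 for Cep genes. With the mean it was 2.12 over all members, 3.88 for intraflagellar transport, 0.24 for dynein and 1.30 for radial spoke genes. With kallisto it was 3.36 over all members, 4.46 for intraflagellar transport, 3.71 for Bardet-Biedl, 1.15 for dynein, 2.44 for radial spoke, 0.61 for tektin and 3.50 for Cep genes. With TPM rescaled over nuclear protein-coding genes it was 3.74 over all members, 4.81 for intraflagellar transport, 4.41 for Bardet-Biedl, 1.16 for dynein, 2.93 for radial spoke, 0.72 for tektin and 3.84 for Cep genes. At a mean count of at least 10 they were 2.69 over all members, 0.17 for dynein and 3.10 for radial spoke genes. Leaving out each replicate gave 2.57 to 2.64 over all members, -0.014 to 0.014 for dynein and 2.71 to 2.87 for Cep genes.

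The 1 member over 1.5-fold between replicates became 2 with deposited TPM (2.71% of all genes), 6 with spike-in scaling (4.4%), 3 at a count of at least 20 (8.87%) and 7 with no minimum (33.5% of genes with a count), where 3 in place of 0 were over 2-fold (23.5%). Which member passed also changed. With deposited TPM they were Cep112 at -0.74 and Dnah2 at -0.67 on the log2 scale, with Rsph3a at 0.21. With kallisto counts the 1 member was Cep41 at 0.61, with Rsph3a at 0.43. Spike-in scaling moved the members' median ratio to -0.27. Between RSEM and kallisto 4 members were over 1.5-fold, and without replicate 1, 1 was over 2-fold, in place of 0. It was Cep41, at a ratio of 0.429, and no share over all genes was computed without replicate 1. The cause was not tested. Ratios of the replicates have no value with a replicate left out. Low counts limit Dnah17, Rsph14, Rsph6a, Tekt3 and Cep55, and kallisto gave Dnah17 2.80 TPM in place of 0.125 TPM.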
